A study of Mus musculus with 14 samples.

Results

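Described here are 55 genes of chromatin readers, remodellers and histone modifiers in 14 single mesangial cells, the contractile cells of the kidney glomerulus that hold its capillary loops together. The genes were taken by name, from a list chosen with earlier results of these data known. All 55 symbols matched 1 row each among the 35271 genes of the deposited table, and all are annotated as protein-coding. All 14 cells came from the glomeruli of 1 male wild-type mouse of 8 weeks (strain C57BL/6 in the design text, written C56BL/6 in the sample labels), were freed with enzymes and were captured on a Fluidigm C1 instrument. They form 1 group with no treatment. With 1 animal there is no replicate of the mouse, and no p-value was computed. Cells are named by their titles, GL_M_ and a number.

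DNA in the nucleus is wound around histone proteins, and enzymes add and remove acetyl and methyl marks on the histones and methyl groups on the DNA. Reader proteins bind these marks: the HP1 proteins, with a chromodomain, bind methylated lysine 9 of histone H3, and Polycomb chromodomain proteins bind methylated lysine 27. Remodellers of the SWI/SNF, ISWI and CHD families use ATP to move or evict nucleosomes. Many of these proteins act in complexes whose subunits can be filled by either of a pair of related genes.

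Levels are RPKM, read counts divided by a gene length and by the read total of the cell, a scale meant to make genes of different length comparable. A gene was called detected in a cell at an RPKM of at least 1. The read totals, recovered from the steps between low values, ran from 6.59 M in GL_M_75 to 23.8 M in GL_M_60. For a transcript of 1 kb, a floor of 3 reads corresponds to 0.126 RPKM in the deepest cell and 0.455 in the shallowest, for counting error only. The gene lengths behind the deposited values are not given. Scaled by annotated exonic length, low values of some genes fall on steps wider than 1 read. For Ep300 they are 4.60 in GL_M_11, 13.8 in GL_M_60 and 18.4 in GL_M_65. The RPKM of such genes rests on a shorter length, so levels compare less well between genes, paralogues included, than between cells. In a single cell a transcript that is absent and one that was lost before sequencing cannot be told apart. Of 9 mesangial marker genes, 8 were detected in some cell and 6 to 8 were at an RPKM of 10 or more in each cell. GL_M_30 also had 10 of 13 endothelial genes and GL_M_55 had 5 of 12 podocyte genes at 10 or more, against 0 to 5 and 0 to 3 in the other cells. The proximal tubule and the distal tubule and collecting duct lists, with 10 and 8 genes, summed to at most 0.330 and 0.0660 in any cell. No label says how cells were filtered or whether chambers with 2 cells were removed.

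Most of the chromatin genes were present somewhere among the cells, but few were present in all of them. Of the 55 genes, 48 (87.3%) were detected in at least 1 cell, against 41.8% of 21396 protein-coding genes and 29.2% of all genes of the table. At 10 or more in at least 4 cells were 30 (54.5%), against 11.3% and 7.14%. In every cell only Cbx1 and Cbx3 were detected (3.64% of the members, against 0.701% of protein-coding and 0.454% of all genes). In at least 7 cells 7 genes (12.7%, against 4.9% and 3.08%) were at 10 or more: Cbx3, Atrx, Cbx1, Cbx5, Crebbp, Arid1b and Kmt2d. Without GL_M_30 and GL_M_55, 48 genes were detected in some cell, 2 in every cell, and 11 were at 10 or more in at least 6 of the 12 cells. Had any value above 0 counted as detected, 14 genes would have been detected in every cell. The exonic length of the 55 genes had a median of 8.12 kb, against 3.54 kb for the protein-coding genes. Across genes, Spearman's rho between length and the number of cells detected was 0.44 for the 55 genes and 0.34 for the 21396. The part of length in these shares was not tested, nor was that of choosing the genes with earlier results of these data known.

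As in the whole table, few of the values above 0 lay in the middle range. Of 770 values, 55 genes in 14 cells, 257 were 0, 212 lay above 0 but below 1, 82 lay from 1 to below 10, and 219 were 10 or more. Of the values above 0, 16.0% lay between 1 and 10, against 17.1% for the protein-coding genes and 17.7% for all genes. At 34 of the 55 genes the highest cell reached at least 100, which held for 22.2% of protein-coding genes and 14.1% of all genes. At 100 or more in exactly 1 cell were 15 of the 55, against 10.5% and 6.77%. Among the genes that reached 100, the values above 0 and below 1 had a median of 0.0292% of the highest cell's level. The members that peaked in a given cell numbered from 2 in GL_M_30, GL_M_91 and GL_M_94 to 6 in GL_M_11 and GL_M_29.

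**Figure D1:**
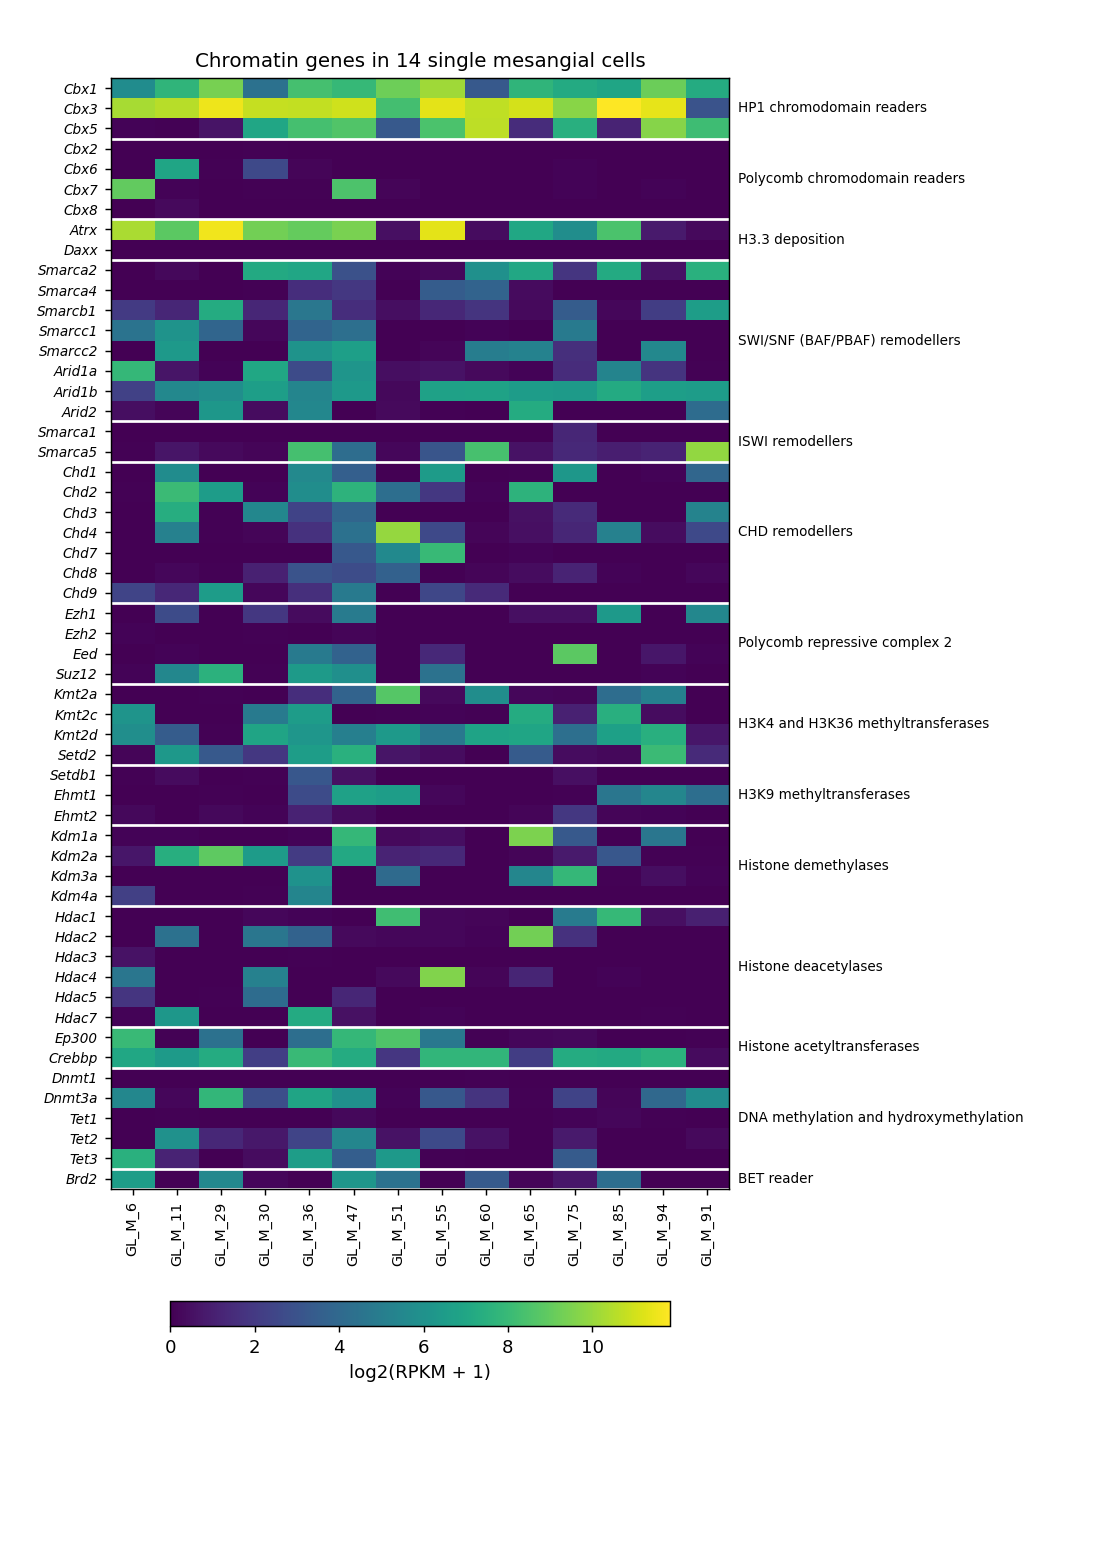
The heat map shows log2(RPKM + 1) of the 55 chromatin genes (rows, grouped by role) in the 14 cells (columns). Cbx3 and Cbx1 are bright in nearly every column, Arid1b, Kmt2d and Crebbp in most, and Daxx, Dnmt1, Ezh2, Hdac3, Tet1, Cbx2 and Cbx8 are dark throughout.

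**Figure D2:**
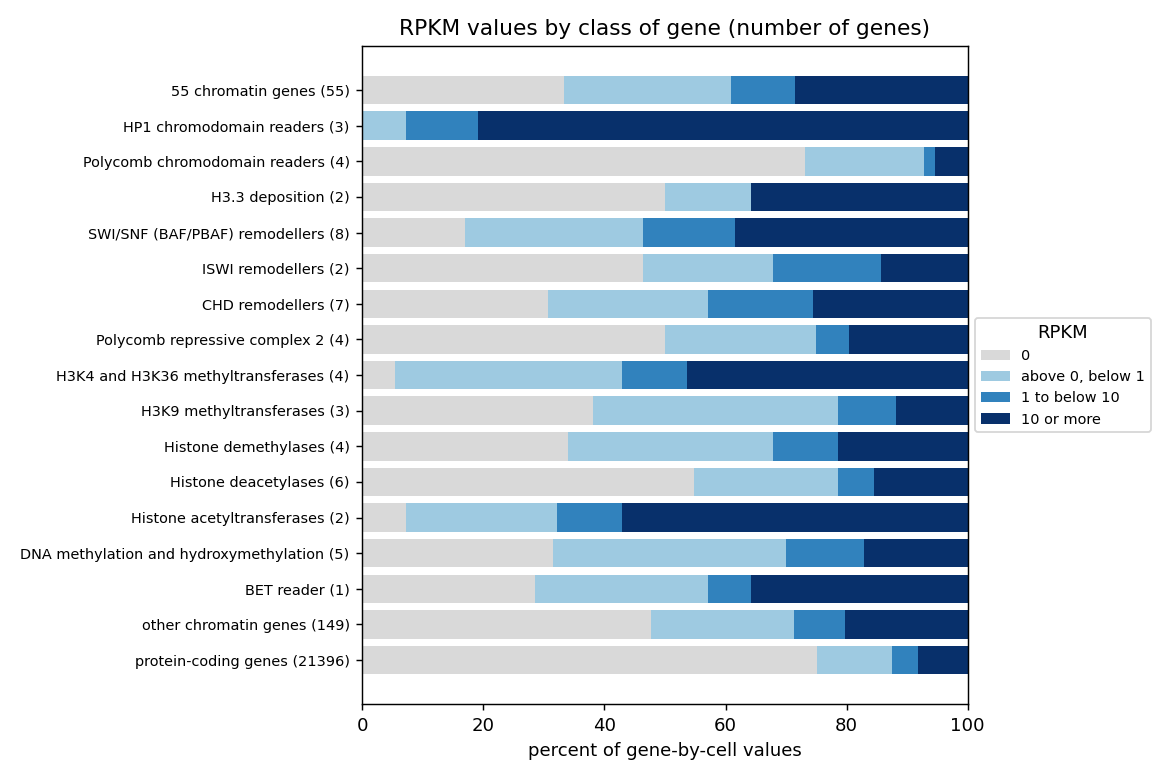
Bars give the percent of gene-by-cell RPKM values that are 0, above 0 but below 1, from 1 to below 10, and 10 or more, for the 55 genes, each role, other chromatin genes and all protein-coding genes, with the number of genes in brackets. Values of 10 or more make up 81.0% for the HP1 readers, 28.4% for the 55 genes and 8.21% for protein-coding genes.

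The HP1 readers were the strongest group. Cbx3 encodes HP1 gamma, which is found in heterochromatin and also along transcribed genes. Its RPKM ran from 7.28 in GL_M_91 to 3637 in GL_M_85 with a median of 1742, and its mean log2(RPKM + 1) was 10.17 ± 2.23 (SD over 14 cells). The next lowest cells were GL_M_51 at 309 and GL_M_75 at 854. Among all genes of a cell, Cbx3 had a median rank of 28 and its best was 8. It was the highest of the 55 genes in 9 cells, and it gave 0.369% (GL_M_91) to 68.6% (GL_M_85) of their summed RPKM. Of its sequence, 8.67% of 50-base words also occur in transcripts of other genes, among them Cbx3 pseudogenes, so its level is uncertain to that extent.

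Cbx1, HP1 beta, which is typical of condensed heterochromatin, came next. It ran from 8.86 in GL_M_60 to 1111 in GL_M_55, with a median of 215 and a mean log2 level of 7.47 ± 1.92. Cbx3 was above Cbx1 in 12 of 14 cells, the exceptions being GL_M_51 (309 against 601) and GL_M_91 (7.28 against 156). Cbx5, HP1 alpha, was uneven, from 0.0356 in GL_M_11 to 1620 in GL_M_60, with a median of 152. It was detected in 11 cells (78.6%, exact Clopper-Pearson 95% interval 49.2% to 95.3%, for the sampling of cells only) and was at 10 or more in 8. Cbx1 was above Cbx5 in 8 cells and below it in 6, so these 2 genes have no steady order. In GL_M_91, where Cbx3 was lowest, Cbx5 was the highest HP1 gene at 279.6, and in GL_M_60, where Cbx1 was lowest, Cbx5 was at its peak. Every cell had at least 2 of the 3 genes, and GL_M_6, GL_M_11 and GL_M_29 lacked Cbx5 at the detection limit.

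**Figure D3:**
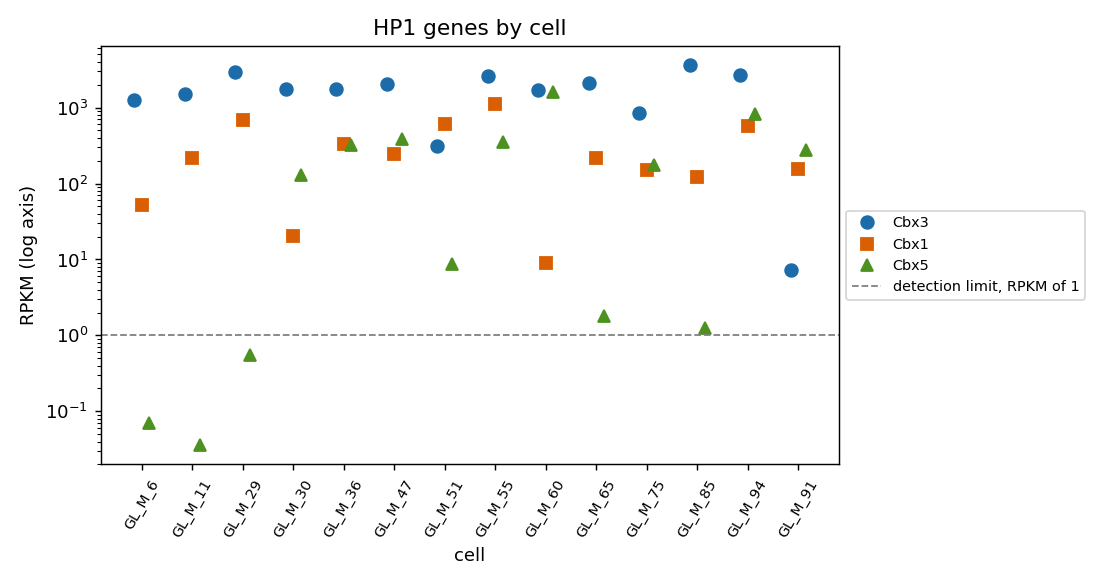
Points give the RPKM (log axis) of Cbx3, Cbx1 and Cbx5 in each of the 14 cells, with the detection limit of 1 as a dashed line. Cbx3 lies on top in all cells but GL_M_51 and GL_M_91, and Cbx5 falls below the limit in GL_M_6, GL_M_11 and GL_M_29.

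The start regions of the HP1 genes are shown because Cbx3 and Cbx5 each lie head to head with a gene of an hnRNP, an RNA-binding protein of splicing. On GRCm38, Cbx3 (ENSMUSG00000029836) spans chr6:51470360-51483704 on the plus strand, and the minus-strand gene Hnrnpa2b1 starts 466 bases before it. Cbx5 (ENSMUSG00000009575) spans chr15:103191544-103239816 on the minus strand, and the plus-strand gene Hnrnpa1 starts 616 bases from it. Cbx1 (ENSMUSG00000018666), at chr11:96789127-96808640 on the plus strand, has no protein-coding neighbour of this kind within 1000 bases. Such a neighbour was found for 4 of the 55 genes (7.27%) and for 1489 of 21951 annotated protein-coding genes (6.78%). The windows below, from RefSeq on GRCm38.p6, span a transcript start and are written 5′ to 3′ on the gene's strand, with each CG pair in capitals, the pair at which DNA methylation occurs in mammals.
Cbx3, chr6:51470366-51470665, plus strand: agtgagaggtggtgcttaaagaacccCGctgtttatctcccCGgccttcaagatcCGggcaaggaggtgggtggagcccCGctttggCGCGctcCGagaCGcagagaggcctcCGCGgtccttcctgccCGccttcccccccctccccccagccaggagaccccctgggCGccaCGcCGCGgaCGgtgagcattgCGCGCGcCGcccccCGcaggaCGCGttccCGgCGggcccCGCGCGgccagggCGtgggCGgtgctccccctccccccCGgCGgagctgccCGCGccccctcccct
Cbx5, chr15:103239803-103240102, minus strand: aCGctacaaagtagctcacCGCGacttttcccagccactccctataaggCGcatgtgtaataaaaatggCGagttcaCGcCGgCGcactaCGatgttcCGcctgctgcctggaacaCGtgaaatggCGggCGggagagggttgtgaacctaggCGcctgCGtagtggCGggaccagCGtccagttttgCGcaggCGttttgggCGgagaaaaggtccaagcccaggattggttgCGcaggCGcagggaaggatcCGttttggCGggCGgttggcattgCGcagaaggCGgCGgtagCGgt
Cbx1, chr11:96788885-96789184, plus strand: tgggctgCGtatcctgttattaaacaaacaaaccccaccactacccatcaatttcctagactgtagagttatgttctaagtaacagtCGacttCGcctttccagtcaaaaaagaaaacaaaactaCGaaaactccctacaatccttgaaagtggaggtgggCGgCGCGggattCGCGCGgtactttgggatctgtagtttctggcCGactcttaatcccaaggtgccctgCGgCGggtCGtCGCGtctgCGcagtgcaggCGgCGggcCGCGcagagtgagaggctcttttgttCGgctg

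The first RefSeq window of each gene is shown. The Cbx3 window begins inside the gene as placed above, so it holds none of the gap to Hnrnpa2b1. A second Cbx3 window holds 32 CG pairs and no GC box, and a second Cbx5 window holds 8 CG pairs and a GC box. The windows shown hold 34 CG pairs for Cbx3, 29 for Cbx5 and 22 for Cbx1. The median was 29 over 65 windows of the 46 chromatin genes found in the RefSeq table, against 13 over 21263 windows of protein-coding genes. The GC box GGGCGG, searched on both strands, occurs in all 3 windows shown, in 76.9% of the chromatin gene windows, in 46.2% of protein-coding windows and in 35.7% of all 32851 windows. The TATA box TATAAA, searched likewise, occurs in 0 of the 65 windows, in 12.6% of protein-coding windows and in 13.6% of all windows. Letters that match are a description of the window and no evidence of binding.

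The hnRNP neighbours had other levels than the HP1 gene beside them in most cells. Hnrnpa2b1 ran from 0.102 in GL_M_60 to 338 in GL_M_75 with a median of 14.6, and Cbx3 was above it in 14 of 14 cells. In GL_M_60 Cbx3 stood at 1682 with Hnrnpa2b1 at 0.102. Hnrnpa1 ran from 0.0716 in GL_M_55 to 265 in GL_M_51 with a median of 71.2, and was above Cbx5 in 7 cells and below it in 7. In GL_M_11 Cbx5 was at its lowest, 0.0356, with Hnrnpa1 at 53.8.

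For the Polycomb chromodomain genes 5.36% of values were 10 or more, against 8.21% for protein-coding genes. Detected in some cell were 50% of them, against 41.8%. Of the 4 Polycomb chromodomain genes, Cbx7 was at 499.6 in GL_M_6 and 363 in GL_M_47 and below 1 elsewhere, and Cbx6 was at 121 in GL_M_11 and 5.02 in GL_M_30. Cbx2 and Cbx8 were each above 0 in 1 cell, at 0.0344 and 0.228, and were detected in 0 of 14 cells, for which the exact interval reaches 23.2%. Polycomb repressive complex 2 methylates lysine 27 of histone H3 through Ezh1 or Ezh2 and needs Eed and Suz12. For these 4 genes 19.6% of values were 10 or more, above the 8.21% of protein-coding genes. Ezh2, the form typical of dividing cells, was detected in 0 cells and peaked at 0.108. Ezh1 was detected in 5 cells, up to 84.0 in GL_M_85, at 0 in 5 cells, with a median of 0.339. Suz12 was at 10 or more in 5 cells, from 21.01 in GL_M_55 to 194 in GL_M_29, and below 1 in the other 9. Eed was at 457 in GL_M_75, 27.0 in GL_M_36, 12.04 in GL_M_47 and 1.57 in GL_M_55. GL_M_47 was the only cell with an Ezh gene, Eed and Suz12 detected together (7.14%, exact interval 0.181% to 33.9%). It also had 4379 protein-coding genes detected, more than any cell but GL_M_36. Of 10 proliferation genes, 5 were detected in some cell and 5 cells had 1 at 10 or more. Their sum reached 1134 in GL_M_55 and 506 in GL_M_30, with a median of 5.55.

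Atrx, a remodeller that with Daxx deposits the histone variant H3.3, was either high or below the detection limit. Its RPKM was from 54.1 (GL_M_75) to 3076 (GL_M_29) in 10 cells and from 0.213 (GL_M_91) to 0.819 (GL_M_94) in GL_M_51, GL_M_60, GL_M_91 and GL_M_94, with no value between 1 and 10. The same gap was seen in other members, among them Kmt2d, Smarcc1, Chd1 and Ep300. Scaled by annotated exonic length, the Atrx values come out at 164.1 in GL_M_51, 164.0 in GL_M_60 and 136.7 in GL_M_94. These lie on steps far wider than 1 read. The deposited RPKM of Atrx thus rests on a shorter length, and the true read numbers are smaller. The level of Atrx beside other genes is uncertain for the same reason. In GL_M_6, GL_M_29 and GL_M_55 Atrx was the highest of the 55 genes. Atrx (ENSMUSG00000031229) lies at chrX:105797615-105929403 on the minus strand. Daxx was listed at 0 in all 14 cells and was the only gene of the 55 with no value above 0. With its annotated exonic length, 3 reads would have given an RPKM of 0.0400 to 0.144. A shorter length behind the deposited RPKM would raise this floor.

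Among SWI/SNF genes, Arid1b and Smarca2 were detected in more cells than their paralogues. Arid1b, a large DNA-binding subunit of the BAF form, was detected in 13 cells, the most of the 8 SWI/SNF genes: its RPKM was 0.174 in GL_M_51, 3.94 in GL_M_6 and from 40.5 to 149.7 in the other 12 cells, with a median of 88.7. Arid1a, its paralogue, had a median of 1.21 and was at 10 or more in GL_M_6 (236), GL_M_30 (131), GL_M_47 (71.2) and GL_M_85 (39.3). Arid1b was above it in 11 of 14 cells. Arid1b (ENSMUSG00000069729) lies at chr17:4994332-5347656 on the plus strand. Arid2, the subunit of the PBAF form, was at 153 in GL_M_65, 76.1 in GL_M_29, 44.0 in GL_M_36 and 17.3 in GL_M_91, and below 1 elsewhere.

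Of the ATPases of SWI/SNF, Smarca2 (BRM) was detected in 8 cells and Smarca4 (BRG1) in 4. Smarca2 ran from 0 in 2 cells to 183 in GL_M_91, with a median of 4.57 and 6 cells at 10 or more. Smarca4 had a median of 0.0137 and was at 10 or more only in GL_M_60, at 12.6. Both were detected in GL_M_36, GL_M_47 and GL_M_60, and neither in 5 cells. Smarcb1, a core subunit, was detected in 11 cells but mostly at low levels, with a median of 2.15 and peaks of 154 in GL_M_29 and 93.6 in GL_M_91. The core scaffolds Smarcc1 and Smarcc2 were at 10 or more in 6 cells each, up to 67.5 in GL_M_11 and 99.7 in GL_M_47. At least 1 ATPase, Smarcb1, 1 scaffold and 1 Arid1 gene were detected together in 4 cells, GL_M_36, GL_M_47, GL_M_60 and GL_M_75 (28.6%, exact interval 8.39% to 58.1%). GL_M_36, GL_M_47 and GL_M_75 had the most protein-coding genes detected of all cells, and GL_M_60 the fewest.

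In the ISWI family, which spaces nucleosomes, Smarca5 (SNF2H) was above 0 in every cell but had a median of only 1.14. It was high in 3 cells, at 968 in GL_M_91, 329 in GL_M_60 and 328 in GL_M_36, then at 17.6 in GL_M_47, and below 10 in the rest. In its sequence 28.2% of 50-base words recur in other annotated transcripts, so its level is uncertain. Smarca1 (SNF2L) was detected only in GL_M_75, at 1.43.

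CHD remodellers had their highest levels in several cells. All 7 were detected in GL_M_47, 6 in GL_M_36, and 5 each in GL_M_11 and GL_M_55. GL_M_36 and GL_M_47 also had the most protein-coding genes detected, 4771 and 4379, against at most 3070 in any other cell. Chd4, the ATPase of the NuRD complex, was at 981 in GL_M_51, and its next highest cell was GL_M_11 at 35.9, with a median of 1.84. Chd3, its paralogue, peaked at 163 in GL_M_11 and had a median of 0.247. Chd4 or Chd3 was detected in 9 cells and both in 5. Chd2 was at 10 or more in 6 cells, up to 268 in GL_M_11, with a median of 1.41, and 18.0% of its 50-base words are shared with other transcripts. Chd1, which binds methylated lysine 4 of histone H3, was at 10 or more in 6 cells, from 10.9 in GL_M_47 to 89.1 in GL_M_55, and below 1 in 8. Chd7 reached 253 in GL_M_55 and was at 0 in 8 cells, Chd9 reached 92.2 in GL_M_29, and Chd8 peaked at 11.7 in GL_M_51. GL_M_94 was the only cell with no CHD gene detected.

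Of the 7 histone methyltransferase genes of the lysine 4, 36 and 9 groups, Kmt2d was detected in the most cells, 12. It encodes a lysine 4 methyltransferase of histone H3 that acts at enhancers. It was at 10 or more in 12 cells, up to 177 in GL_M_94, and at 0.0643 in GL_M_29 and 0.653 in GL_M_91, with a median of 65.1. Its partner gene at enhancers, Kmt2c, was detected in 6 cells, up to 176 in GL_M_85, with a median of 0.187. Kmt2a (MLL1) was detected in 6 cells, at 420 in GL_M_51 and 54.1 in GL_M_60, with a median of 0.179. All cells with Kmt2c or Kmt2a detected also had Kmt2d, which was undetected only in GL_M_29 and GL_M_91. Kmt2d (ENSMUSG00000048154) lies at chr15:98831669-98871204 on the minus strand. Setd2, which trimethylates lysine 36 of histone H3 in transcribed genes, was detected in 8 cells, with a median of 2.20 and a peak of 265 in GL_M_94.

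The lysine 9 methyltransferases, which make the mark that HP1 binds, were low in most cells, as most protein-coding genes were. For these 3 genes 11.9% of values were 10 or more, against 8.21% for protein-coding genes. Ehmt1 (GLP) was at 10 or more in 5 cells, up to 109 in GL_M_47, with a median of 0.103. Ehmt2 (G9a), its partner, peaked at 2.82 in GL_M_75. Setdb1 was detected only in GL_M_36, at 8.12, and 10.2% of its 50-base words are shared with other transcripts. At least 1 of the 3 was detected in 7 of 14 cells, while both Cbx1 and Cbx3 were detected in all 14. Other genes of this class are outside the 55: Suv39h1 and Suv39h2 were detected in 0 cells, Setdb2 in 2 and Prdm2 in 4.

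Of the 4 demethylases, Kdm2a was detected in the most cells. It was above 0 in every cell, detected in 8 and at 10 or more in 4, up to 473 in GL_M_29, with a median of 1.41. Kdm1a (LSD1), which acts on lysine 4 within a corepressor complex, was at 713 in GL_M_65, 237 in GL_M_47 and 23.9 in GL_M_94, with a median of 0.0904. Kdm3a, a lysine 9 demethylase, was at 10 or more in 4 cells, up to 233 in GL_M_75, and below 1 in the others. Kdm4a was at 41.2 in GL_M_36 and 3.76 in GL_M_6 and below 1 elsewhere.

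Deacetylases had no member at 10 or more in over 4 cells, yet 15.5% of their values were 10 or more, against 8.21% for protein-coding genes. Hdac2 was at 634 in GL_M_65, from 12.3 to 24.3 in 3 other cells and at 2.17 in GL_M_75, with a median of 0.157. Hdac1, its paralogue, was at 297 in GL_M_51, 240 in GL_M_85 and 29.1 in GL_M_75, with a median of 0.139, and 35.5% of its 50-base words are shared with other transcripts. Both were detected in GL_M_75 and neither in 6 cells. Hdac3 was detected in 0 cells and peaked at 0.508. Of the class IIa genes, which shuttle between nucleus and cytoplasm, Hdac4 was at 764 in GL_M_55, Hdac7 at 148 in GL_M_36 and 75.5 in GL_M_11, and Hdac5 at 17.4 in GL_M_30. Hdac4 shares 21.6% of its 50-base words, and 22.4% of its exonic bases overlap Gm26720 on the opposite strand, whose reads cannot be told apart without strand. At least 1 of the 6 deacetylases was detected in 11 cells.

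The acetyltransferases CBP and p300 are close paralogues that acetylate histone H3 at enhancers. Crebbp (CBP) was detected in 13 of 14 cells (92.9%, exact interval 66.1% to 99.8%), with an RPKM of 86.8 to 259 in 10 cells, 2.65 to 3.64 in GL_M_30, GL_M_51 and GL_M_65, and 0.278 in GL_M_91. Ep300 (p300) was at 10 or more in 6 cells, from 18.5 in GL_M_36 to 385 in GL_M_51, and below 1 in the other 8, with a median of 0.173 against 149 for Crebbp. Crebbp was above Ep300 in 11 cells and below it in GL_M_6, GL_M_47 and GL_M_51. The only cell without Crebbp detected, GL_M_91, had no Ep300 detected either. Crebbp (ENSMUSG00000022521) lies at chr16:4081328-4213997 on the minus strand.

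For DNA methylation, the de novo enzyme gene Dnmt3a was present and the maintenance enzyme gene Dnmt1, which copies methylation onto new strands after replication, was not detected. Dnmt3a was above 0 in every cell and detected in 10, from 0.0499 in GL_M_65 to 229 in GL_M_29, with a median of 7.35. Dnmt1 was above 0 in 4 cells and peaked at 0.0382. Dnmt3a (ENSMUSG00000020661) lies at chr12:3806007-3914443 on the plus strand. The TET genes encode enzymes that oxidise methylcytosine. Tet3 was detected in 6 cells, up to 179.8 in GL_M_6, Tet2 in 5, up to 62.1 in GL_M_11, and Tet1 in 0, with a peak of 0.178. Both Tet2 and Tet3 were detected in GL_M_11, GL_M_36 and GL_M_47. Brd2, a BET protein that binds acetylated histones, was at 10 or more in 5 cells, up to 95.6 in GL_M_6, at 0 in 4, with a median of 0.395.

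**Figure D4:**
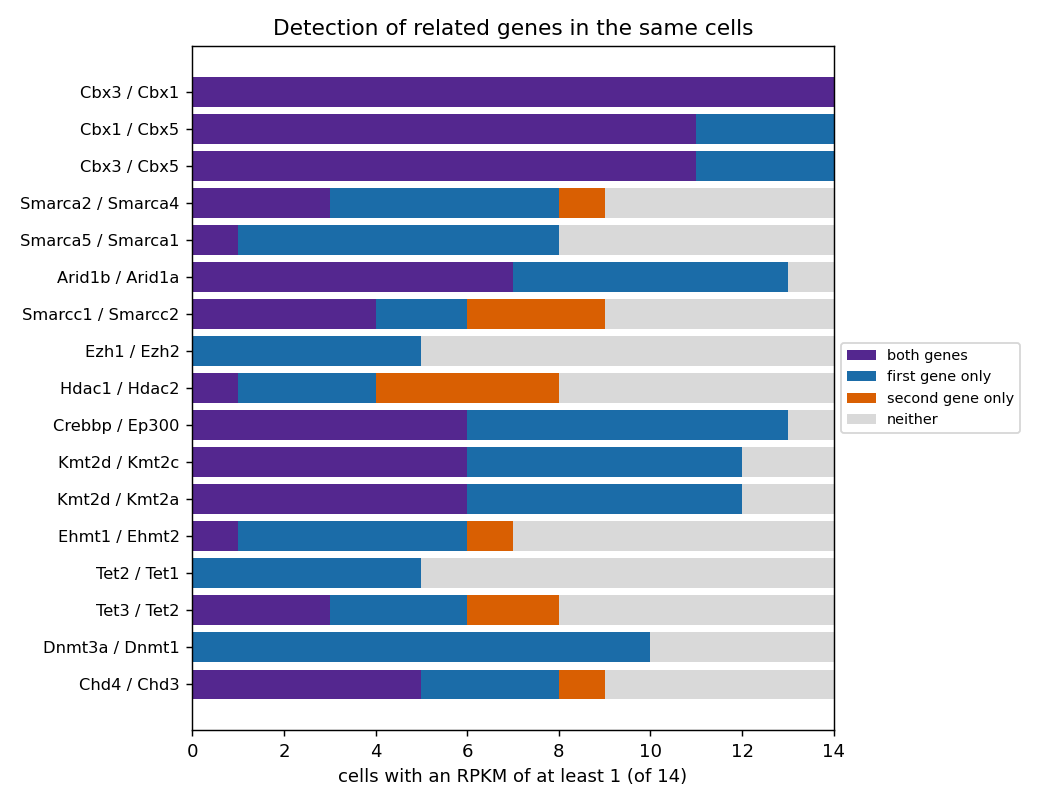
Bars count, for 17 pairs of related genes, the cells of 14 in which both genes, only the first, only the second or neither had an RPKM of at least 1. Arid1a, Kmt2c, Kmt2a and Ep300 were detected only where the first gene of the pair was. Those first genes were detected in 12 or 13 of 14 cells, so few cells could have shown otherwise. Hdac1 was detected in 4 cells, Hdac2 in 5 and both in 1.

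Cells differed in how many of the genes they held. The number detected ran from 15 in GL_M_60 and GL_M_94 to 38 in GL_M_36, with a median of 18.5, and GL_M_47 (36) and GL_M_75 (27) followed GL_M_36. GL_M_36 and GL_M_47 also had the most protein-coding genes detected, 4771 and 4379 against 1632 to 3070 in the other 12 cells. Over the 14 cells, Pearson's r between the 2 counts was 0.91 and Spearman's rho 0.73, and without GL_M_36 and GL_M_47 r was 0.60. With the read total, r was -0.15 and rho -0.28. The 55 genes summed to 0.334% (GL_M_91) to 1.55% (GL_M_55) of a cell's RPKM. GL_M_55 and GL_M_30, the cells with the highest podocyte and endothelial sums, held 22 and 21 of the genes. Cbx1, Chd1, Chd7 and Hdac4 peaked in GL_M_55, where the podocyte list summed to 2178 against a median of 88.8, and Hdac5 peaked in GL_M_30, where the endothelial list summed to 4128 against a median of 899. Cbx3, Arid1b, Ezh1 and Kmt2c peaked in GL_M_85, where the macrophage and leukocyte list summed to 923 against a median of 0.518, with 1 of its 11 genes at 10 or more and Adgre1, Csf1r, Cd68 and Tyrobp at 0 in every cell. The part of such transcripts in these values was not tested.

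**Figure D5:**
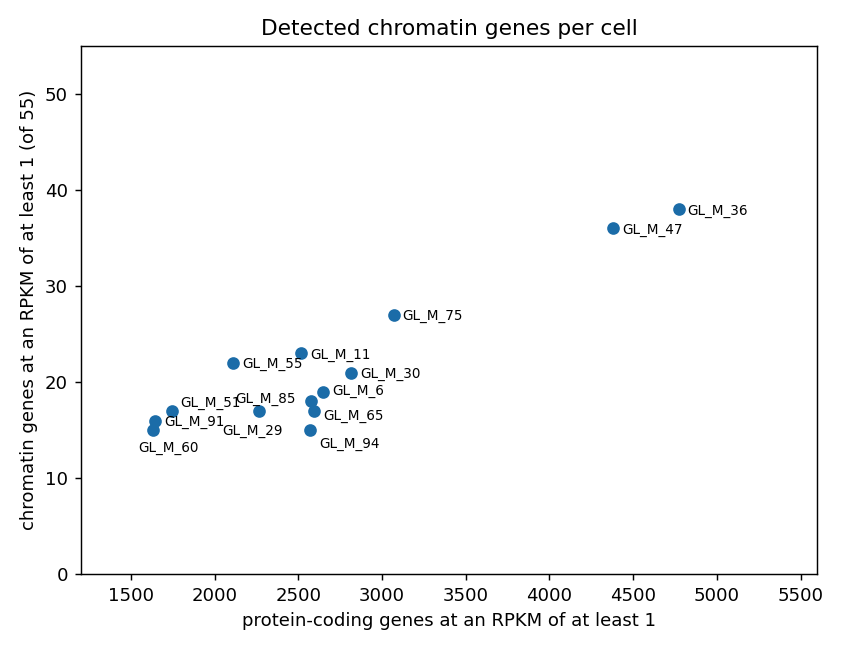
Each point is 1 cell, with the protein-coding genes (horizontal) and the chromatin genes of 55 (vertical) at an RPKM of at least 1. GL_M_36 and GL_M_47 stand apart at 38 and 36 chromatin genes, and the other 12 cells lie between 15 and 27.

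A wider list held 149 other chromatin genes. Of these, 123 (82.6%) were detected in some cell, 42 (28.2%) were at 10 or more in at least 4 cells, and H3f3b and Set were detected in every cell. Without GL_M_29 there were 4 such genes. Of the 50-base words of Set, 29.3% are shared with other transcripts, so its level is uncertain. H3f3b, a gene for H3.3 itself, had its lowest level, 94.96, in GL_M_6 and a median of 1025, while Daxx was at 0. Hmgb1, a DNA-bending protein, had a median of 1284 and was at 0.202 in GL_M_29, and 22.7% of its 50-base words are shared. Kmt2e (MLL5) had a median of 108, with 12 cells at 10 or more. Other SWI/SNF subunits were led by Smarce1, with a median of 42.5 and 8 cells at 10 or more, and Pbrm1, the PBAF subunit, with 21.3 and 10 cells. Aebp2, an accessory protein of Polycomb repressive complex 2, had a median of 20.4, with 8 cells at 10 or more, and Jarid2, another, in 2 with a median of 0.188.

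Among the remaining lists, the corepressor Ncor1 had a median of 35.7, the deacetylase Sirt6 19.7, and the methyltransferases Nsd1 and Nsd3 32.2 and 9.07. The bromodomain gene Brd8 had a median of 27.3, with 7 cells at 10 or more. The demethylases Kdm6b and Kdm5a had medians of 12.5 and 5.09 and were detected in 11 cells each. Bptf and Rsf1, which pair with ISWI ATPases, had medians of 3.67 and 2.20, and the histone-binding NuRD subunit Rbbp4 and its partner Mta2 2.14 and 0.865. Medians were below 1 for Dpy30 of the COMPASS list (0.615), the acetyltransferases Kat2b (0.291) and Kat7 (0.0975), and the DNA glycosylase Tdg (0.238). Of these, Kat2b still reached 2242 in GL_M_94, and 41.2% of the 50-base words of Tdg are shared with other transcripts.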

How the data were processed

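The authors deposited RPKM values per Ensembl gene for 14 cells. The submitters' processing notes list TopHat2 2.0.12, HTSeq 0.6.1 and mm10. No source used here gives the annotation release, the strand setting, the cell filters or the treatment of multimapped reads and doublets. Symbols, coordinates, exonic lengths and transcripts were read from GENCODE M21 (GRCm38, which is mm10).

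From the deposited RPKM, read totals were recovered as the total at which RPKM times exonic length came out whole at genes with 1 transcript. In all 14 cells the simulated totals came back within 0.1 percent, and 79.8% to 89.2% of values below 50 reads lay within 0.02 of a whole number. Detection was an RPKM of at least 1, and log2 levels used a pseudocount of 1. A mean with SD is printed only where a gene was above 0 in all 14 cells. Shared sequence is the percent of a gene's 50-base words found in transcripts of other genes. Intervals are exact Clopper-Pearson 95% intervals for the sampling of cells. All cells come from 1 mouse, so no test between groups was possible. Symbols Setd8 and Prmt1 of the wider list matched no row and were not used. The members and lists were chosen with earlier results of these data known, and named genes are all 55 members, with values for those at 10 or more in at least 4 cells, and the 2 highest by median of each wider list, of which 2 genes are not reported here. Other names were chosen after their values were seen. Alternatives were detection limits of 5 and above 0, a pseudocount of 0.1, no filter, a rescaled table and left-out cells. Python 3.11.15, numpy 2.4.6, pandas 2.3.3 and scipy 1.17.1 were used.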

Additional observations from a re-analysis of the deposited data

How the results depend on the processing

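Counting any value above 0 as detected moved 14 genes instead of 2 into every cell, the median number of cells per gene from 5 to 10, the median number of genes per cell from 18.5 to 35, and the wider list's genes in every cell from 2 to 15. Without GL_M_30 and GL_M_55, 11 genes instead of 7 were at 10 or more in at least 6 of 12 cells, a lower number of cells than with 14. Over the 45 genes whose mean RPKM reached 1, log2 levels had a median SD of 2.75, against 2.30 for the 7976 such genes of the table. It was 3.97 with a pseudocount of 0.1, and the coefficient of variation was 2.06, on another scale. Leaving out 1 cell in turn gave 2 to 4 genes of the wider list in every cell, with 4 only without GL_M_29, and 2 to 3 of the 55 genes, with 3 without GL_M_51 or GL_M_91. The ranges were 47 to 48 genes detected in some cell, 7 at 10 or more in at least 7 cells, and 10.04 to 10.71 for the mean log2 level of Cbx3. The order Cbx3, Cbx1, Cbx5 by median held with each cell left out, without either pair of cells and in the rescaled table, the alternatives run for it. Depth limits low values: an RPKM under 0.455 on a transcript of 1 kb can be fewer than 3 reads in the shallowest cell. By annotation the 55 genes are longer than 1 kb. By annotated exonic length, their own floors of 3 reads ran from 0.00544 (Chd9, deepest cell) to 0.144 (Daxx, shallowest cell). The length behind the deposited RPKM is not given and was shorter for some genes, Atrx and Ep300 among them. Their floors are higher than by annotated length. How many values below 1 are more than 3 reads is therefore not known. No paired analysis was possible because there is 1 group.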
